A study of Mus musculus with 3 samples.

Results

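The Zfp genes of the mouse encode zinc finger proteins, and 187 of the 364 protein-coding genes with a Zfp symbol met a count minimum in RNA held on the chromatin of activated macrophages. The 187 were selected by symbol (Zfp followed by a number, leaving out Zfp36, whose product binds mRNA through a different kind of finger), by at least 1 protein-coding transcript, and by at least 50 expected counts in each of 3 libraries. The counts themselves therefore chose the genes, so their presence and their lower limit are not findings. The 3 libraries were of 1 condition. Macrophages derived in culture from bone marrow of C57BL/6J mice, which are primary cells, were first exposed to 100 ng/ml Lipid A during 12 h. After a washout of 12 h they were stimulated a second time, at 100 ng/ml over 120 min. Lipid A is the part of bacterial lipopolysaccharide that Toll-like receptor 4 recognises. All 3 libraries were made from total RNA of the chromatin fraction after depletion of ribosomal RNA, with 1 µg, 250 ng and 500 ng of RNA as starting material for replicates 1, 2 and 3. No untreated cells, other fraction or other time were analysed here, so no value below is a response to Lipid A, and the age and sex of the animals were not collected.

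A C2H2 zinc finger is a short loop held by a zinc ion between a pair of cysteines and a pair of histidines. Fingers usually stand in tandem arrays, each finger reading a few bases of DNA. Many of these proteins also carry a KRAB domain, which recruits the corepressor Trim28 and with it the histone methyltransferase Setdb1 and HP1 proteins, and is best known for silencing retroelements and for keeping imprints. Others without KRAB act in transcription, splicing, RNA binding or ubiquitin transfer. KRAB zinc finger genes have multiplied by local duplication, so that whole blocks of a chromosome hold near-copies.

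That near-identity bears on what short reads can tell apart, and the stretches below show it. Each is the 84 bases that code for finger 3 and the linker behind it in the GENCODE transcript (build mm10), 5′ to 3′, beside the stretch of the Zfp gene whose coding sequence came closest to it. Capitals mark the bases at which the pair differs. The first pair lies on chromosome 4, the second on chromosome 17 and the third on chromosome 2. The last pair, shown for contrast, sets the highest gene of all, on chromosome 16, against its closest match on chromosome 2.
Zfp991: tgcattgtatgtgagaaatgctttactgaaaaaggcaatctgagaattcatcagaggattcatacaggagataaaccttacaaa
Zfp992: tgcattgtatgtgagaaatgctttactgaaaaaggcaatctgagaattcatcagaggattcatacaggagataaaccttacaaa
Zfp995: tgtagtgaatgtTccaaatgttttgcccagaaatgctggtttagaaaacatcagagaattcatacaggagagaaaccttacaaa
Zfp947: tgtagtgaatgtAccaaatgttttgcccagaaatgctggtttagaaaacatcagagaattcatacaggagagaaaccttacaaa
Zfp970: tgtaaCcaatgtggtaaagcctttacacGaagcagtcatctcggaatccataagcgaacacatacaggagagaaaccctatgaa
Zfp966: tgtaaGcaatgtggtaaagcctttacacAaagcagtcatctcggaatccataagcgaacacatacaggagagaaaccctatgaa
Zfp263: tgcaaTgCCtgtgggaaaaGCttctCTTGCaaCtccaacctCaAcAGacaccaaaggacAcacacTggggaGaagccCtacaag
Zfp663: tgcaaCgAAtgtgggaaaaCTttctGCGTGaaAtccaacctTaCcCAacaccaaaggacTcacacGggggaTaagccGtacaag
The pairs had 0, 1, 2 and 19 mismatches. Among the 167 members in which such a stretch was found, the closest stretch in the coding sequence of any other Zfp gene had a median of 20 mismatches (range 0 to 43), and 10 members had a match with at most 4. Members had a median of 11 fingers, and at least 1 finger was found in 183 of the 187. The 4 without one were Zfp330, Zfp839, Zfp703 and Zfp750, named after their values were seen. Over whole transcripts, the median member shared 2.92% of its 31-base words with another gene, the median Zfp gene outside the rule shared 5.34% and the median other protein-coding gene 1.88%. Zfp991, Zfp995 and Zfp970 were chosen for display with their read-based levels known, and these pairs are taken up again with those levels.

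The libraries held 10293545, 17820066 and 17548564 expected counts in replicates 1, 2 and 3, and the median member had 179, 335 and 330 of them. Replicate 1 stood apart: across the members, log2 TPM correlated at Pearson's r of 0.926 and 0.928 between it and replicates 2 and 3, and at 0.979 between those 2, a description across genes, which are not independent replicates. It stood apart across the other genes too, at 0.948 and 0.945, with 0.978 between replicates 2 and 3. The labels call the libraries separate biological replicates and do not say that they came from different animals, so an SD here is the spread of 3 libraries and may hold technical differences alone. All 7 macrophage markers passed the count minimum in every library, with a summed level of 972 to 1551 TPM. None of the T cell, B cell, neutrophil, erythroid, fibroblast and dendritic cell markers reached 1 TPM in every library, and the 4 globin genes had 0 counts throughout. The dendritic cell marker Zbtb46 came closest, with 0.6, 1.06 and 1.49 TPM in replicates 1, 2 and 3. The fibroblast markers Col1a1 and Col1a2 had 0 counts in replicate 1, 32 and 17 in replicate 2, and 50 and 34 in replicate 3, so they moved with the library that stood apart. Their part in the members' values was not tested. In bulk RNA such as this, fewer cells of a type and less RNA per cell cannot be told apart.

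Levels are given as TPM, the deposited abundance that scales counts by transcript length and library total, from the deposited quantification that rests on alignments (called alignment-based). Members lay low among the genes on chromatin. Their median level was 6.41, 9.79 and 8.29 TPM in replicates 1, 2 and 3, against 12.9, 17.7 and 15.3 TPM for the 7744 other protein-coding genes that met the same minimum. On the log2(TPM + 0.1) scale the members' median was lower by 0.91 (a difference of -0.91 ± 0.083, SD over 3 libraries), a ratio of 0.533 ± 0.030 that had the same direction in 3 of 3 libraries. Since that minimum is on counts, it lets longer genes in at lower TPM. A level above the median other gene in every library was reached by 38 of the 187 members (20.3%), against 43.8% of the other genes, and a level of at least 10 TPM in every library by 51 of the 187 (27.3%), against 55.5%. By symbol, 51.4% of protein-coding Zfp genes met the minimum, against 36% of all other protein-coding genes. Of the related finger families, 6 of 11 Zkscan, 6 of 10 Zscan and 27 of 35 Zbtb genes met it, with median levels of 4.82, 5.19 and 7.03 TPM beside 8 TPM for Zfp. Members made up 2.36% of the protein-coding genes over the minimum and held 1.22% ± 0.13 of those genes' counts (SD, n = 3).

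**Figure D1:**
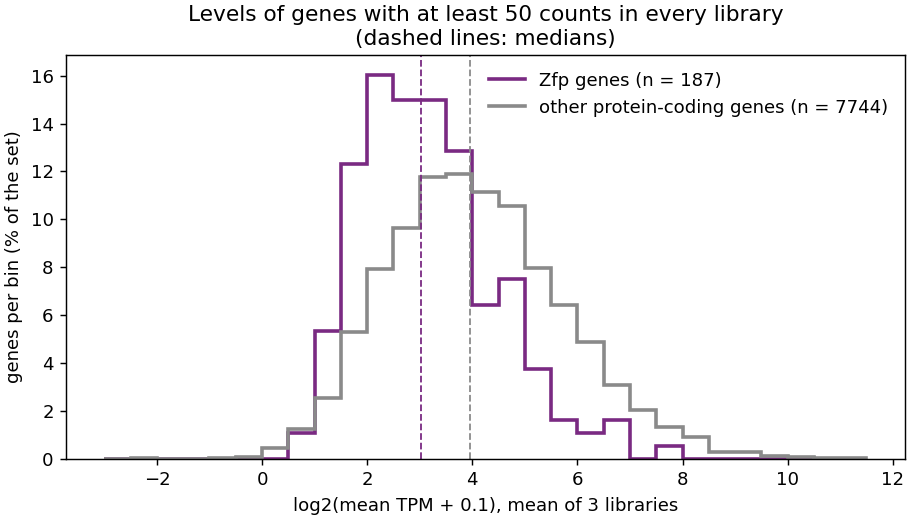
Share of genes per bin of log2(mean TPM + 0.1), in percent of each set, for the 187 Zfp genes (purple) and the 7744 other protein-coding genes (grey) with at least 50 counts in every library. The purple median lies left of the grey one, and few Zfp genes reach the right-hand part of the grey curve.

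The 10 highest members held 31.6% ± 0.73 (SD, n = 3) of the members' summed TPM. They were picked by that level, and no matching share was computed for other genes, so nothing particular to the family is read from it. Zfp263 (ENSMUSG00000022529.11, chromosome 16, 3744093 to 3750790, plus strand), a DNA-binding protein with 9 fingers, had 175.92, 250.33 and 216.59 TPM in replicates 1, 2 and 3. Its lowest library lay above the highest library of every other member, and 97.7% of the other protein-coding genes over the minimum had a lower mean. Zfp207 (ENSMUSG00000017421.18, chromosome 11, 80383279 to 80405733, plus strand), known as BuGZ in human cells and needed there for spindle assembly, had 93.45, 135.73 and 110.69 TPM. Zfp638 (ENSMUSG00000030016.14, chromosome 6, 83867109 to 83989550, plus strand), a nuclear RNA- and DNA-binding protein, had 77.25, 143.40 and 112.63 TPM. The order of these last 2 turned round between libraries, with Zfp207 the higher in replicate 1 and Zfp638 in replicates 2 and 3. Zfp445 (chromosome 9, 122844529 to 122866006, minus strand), which keeps imprints in the mouse embryo, came next with 49.52, 131.62 and 95.19 TPM. Its range spanned those of Zfp207 and Zfp638 in part, and its lowest value was in replicate 1.

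The remaining 8 of the 12 highest genes overlapped with their neighbours in rank. Zfp800 was among the steadiest in TPM, at 66.15, 68.75 and 73.86 TPM, although 6530409C15Rik overlaps its exons on the opposite strand. On the log2 scale of CPM (counts scaled by library total, described below) its SD was 0.140. That was below the median member's 0.232, but above 0.122 for Zfp62 and 0.111 for Zfp160. Zfp407, a regulator of PPARγ target genes in adipocytes, had 43.62, 82.24 and 70.62 TPM, and Zfp871 had 46.35, 80.88 and 62.49 TPM. Both were lowest in replicate 1, as was Zfp644, a partner of the G9a and GLP histone methyltransferases, with 23.79, 50.92 and 43.67 TPM. The reverse held for Zfp384, a nuclear matrix protein that binds runs of adenine and thymine, with 51.68, 50.18 and 39.05 TPM. Zfp513, named in human retinal disease, averaged 46.4 ± 9.99 TPM, Zfp62 43.8 ± 12.9 TPM and Zfp160 42.1 ± 8.34 TPM (SD, n = 3 each). At the other end, the 5 lowest members by mean level were Zfp619, Zfp324, Zfp605, Zfp608 and Zfp870. Zfp870 had 1.45, 1.89 and 1.35 TPM, and Zfp608 1.21, 1.85 and 1.85 TPM. From the lowest to the highest member the mean level thus ran from 1.56 to 214 TPM.

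**Figure D2:**
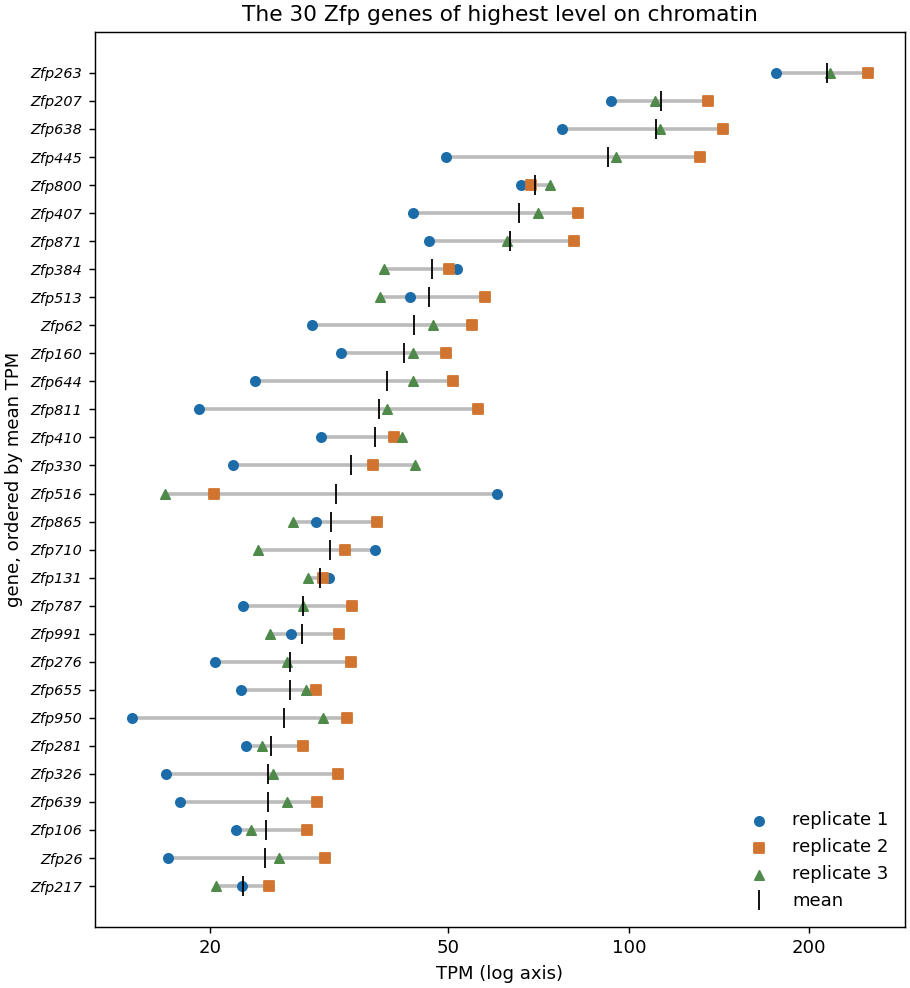
TPM on a log axis of the 30 Zfp genes of highest mean level, with replicates 1 (circle), 2 (square) and 3 (triangle), a grey line over their range and a tick at the mean. Zfp263 stands clear of the rest, and in most genes the circle of replicate 1 is leftmost, with Zfp516, at 60.33 TPM in replicate 1 and 20.34 and 16.84 TPM in replicates 2 and 3, the widest exception.

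The threshold cut through a continuous range of counts. Just inside it, by their lowest library, were Zfp970 (50.37 counts), Zfp54 (51 counts), Zfp97 (53.74 counts) and Zfp688 (54 counts). Just outside were Zfp956 (49.67 counts), Zfp51 and Zfp867 (49 counts each) and Zfp959 (48.44 counts). Their levels did not separate: Zfp54 averaged 2.36 TPM inside and Zfp959 4.64 TPM outside. Of the 177 protein-coding Zfp genes outside, 29 had 0 counts in all 3 libraries and 33 had at least 1 TPM in every library. With replicate 1, the shallowest library, left out, 232 genes met the minimum.

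By role, the genes of RNA handling had the highest median of the lists, 25.02 TPM over 5 members of 5 listed. Next came the stem and progenitor regulators, at 24.0 TPM over 2 members of 5 listed. The lists were drawn up with earlier results of these data known, so this order is not a finding. Of the 5 genes of RNA handling, 4 were above the median other gene in every library, beside 20.3% of all members and 43.8% of other genes. The counts of members in this and the following lists stand beside a share of 51.4% among all protein-coding Zfp genes, and nothing particular to a list is read from them. Zfp207 and Zfp638 are given above. Zfp326, part of a complex that links splicing to RNA polymerase II elongation in human cells, had 16.87, 32.72 and 25.48 TPM. Zfp106, an RNA-binding protein needed for neuromuscular upkeep in the mouse, had 22.08, 29.04 and 23.38 TPM, but 25.2% of its 31-base words are shared with Gm26899, which overlaps it on the opposite strand. Zfp346, which binds double-stranded RNA, had 14.08, 14.41 and 16.85 TPM.

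All 3 ligases of the ubiquitin and SUMO pathways were members. Zfp91, a ubiquitin ligase described for the NF-κB inducing kinase NIK, had 11.57, 25.04 and 23.96 TPM. In TPM it was more than 2-fold lower in replicate 1 than in either other library. A 2-fold range in TPM was found in 24.6% of members and 19.8% of other genes. In CPM Zfp91 did not pass 2-fold, at 70.7, 106 and 118. Zfp598, which marks collided ribosomes with ubiquitin, had 15.17, 20.91 and 20.86 TPM. Zfp451, a SUMO ligase, had 9.83, 19.15 and 15.31 TPM.

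Of 6 genes of imprint and retroelement control, 4 were members. Beside Zfp445, Zfp932, which represses endogenous retroviruses in mouse embryonic stem cells together with its near-copy Gm15446, had 6.34, 20.20 and 13.04 TPM, and shared 44.2% of its words with Gm15446. Zfp568, which represses a placental Igf2 transcript, had 7.80, 14.39 and 10.46 TPM. Zfp809, which silences proviruses of murine leukemia virus in embryonic cells, had 4.70, 9.79 and 7.70 TPM. All 4 were lowest in replicate 1, beside 80.2% of all members and 62.8% of other genes, so nothing particular to them is read from it. The other two were at or near 0: Zfp57, the imprint keeper of the early embryo, had 0, 0 and 1 counts, and Zfp708 had 0 counts in each library, although 95.4% of its words are shared with the overlapping gene Gm28557. A count of 0 allows for up to 3 counts in a library, and covers counting error only.

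Among 5 regulators of stem and progenitor cells, Zfp217 (22.59, 25.07 and 20.48 TPM) and Zfp281 (22.98, 28.56 and 24.42 TPM) were members. Both varied little in TPM between libraries. In log2 CPM the SD of Zfp281 was 0.106, but that of Zfp217 was 0.208, near the median member's 0.232. Zfp217 is an oncogene product that works with histone demethylases, and Zfp281 restrains Nanog in embryonic stem cells. Zfp42, known as the pluripotency marker Rex1, and Zfp423, a determinant of preadipocytes, had 0 counts in every library. Zfp521, expressed in early blood progenitors, had 1 count in all.

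Of 9 genes of chromatin and general transcription, 8 were members. Zfp410, whose known main target is the remodeller gene Chd4, had 30.59, 40.50 and 41.86 TPM. Zfp143, an activator that binds promoters and loop anchors, had 13.92, 7.71 and 8.29 TPM and was highest in replicate 1, as was Zfp384 of the same list. Zfp148, known as ZBP-89, had 17.49, 20.07 and 14.82 TPM. The partners Zfp592 and Zfp687, which work with the reader protein Zmynd8, averaged 13.8 ± 3.71 and 12.7 ± 3.16 TPM (SD, n = 3), and Zfp609, which works with Nipbl and Integrator, 3.80 ± 0.372 TPM. The gene outside was Zfp462, at 18, 7 and 29 counts.

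The 3 lymphocyte regulators were all members as well. Zfp335, needed for T cell maturation in the mouse, had 14.28, 17.82 and 14.59 TPM, with Pcif1 and Zfp335os overlapping its exons on the opposite strand. Zfp318, which allows B cells to make IgD, had 8.29, 15.30 and 13.98 TPM, and Zfp760 1.49, 2.81 and 2.78 TPM. T and B cell markers had 0 to 8 counts each in the same libraries. The pair that binds the neurotrophin receptor p75, Zfp110 and Zfp369, averaged 13.0 ± 1.80 and 11.9 ± 6.48 TPM (SD, n = 3). Zfp110 varied little, and Zfp369 had one of the highest spreads in the family.

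RNA was found for all listed partners of KRAB zinc finger proteins, and protein was not measured. Of the corepressor genes, 20 of 20 met the count minimum and had at least 1 TPM in every library. The count minimum was met by 36% of other protein-coding genes. Their median level was 27.1 TPM. The highest were Chd4, the ATPase of the NuRD complex, at 190 ± 30.4 TPM, Morc3 at 167 ± 25.1 TPM and the histone H3.3 chaperone Daxx at 133 ± 7.32 TPM, and the lowest was Cbx3, which codes for an HP1 protein, at 8.30 ± 2.86 TPM (SD, n = 3 each). Trim28, which the KRAB domain binds, averaged 43.2 ± 10.1 TPM and Setdb1 21.6 ± 8.02 TPM.

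Members with a KRAB-type match lay lower than those without. The match, a pattern on the translated transcript that misses divergent domains, was found in 169 protein-coding Zfp genes, 79 of which were members (46.7%), against 108 of the 195 without it (55.4%). Median levels were 4.70, 6.59 and 6.12 TPM in replicates 1, 2 and 3 for members with the match, and 7.70, 12.1 and 11.2 TPM for those without, lower with the match in all 3 libraries. The highest member with it was Zfp871, and without it Zfp263. Of the members listed for imprint and retroelement control, Zfp809 and Zfp932 had the match and Zfp445 and Zfp568 did not. A gene without the match may still carry a KRAB domain that the pattern misses. The split is thus by the pattern, and not of KRAB genes against genes without KRAB. Number of fingers ran alongside: members with 13 or more fingers had a median of 6.07 TPM, those with 8 to 12 had 8.45 TPM, those with 3 to 7 had 11.8 TPM and those with 0 to 2 had 9.76 TPM. The member with most fingers, Zfp142 with 36, nonetheless averaged 20.6 TPM. Members with the KRAB match had a median of 12 fingers and those without it 8, so these splits are not independent.

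Levels also differed by position. Counting protein-coding Zfp genes less than 500 kb from the next as 1 group, 91 of 168 genes in groups of 5 or more were members, with a median of 5.71 TPM, against 31 of 84 genes in groups of 2 to 4, with 10.3 TPM, and 65 of 112 genes standing alone, with 10.4 TPM. The share of members was thus lowest in the small groups, and the median level lowest in the large ones. There were 16 groups of 5 or more. The one with most genes spans 21008903 to 23599487 of chromosome 17 (mm10), with 16 of 23 genes over the minimum and Zfp160 the highest. On the same chromosome, from 32765496 to 33631779, 7 of 11 genes met it, led by Zfp871 and with Zfp870, the lowest member of all, in the same stretch. On chromosome 4, from 145510759 to 147848366, only 5 of 18 did, led by Zfp991, and on chromosome 13, from 67038596 to 67827002, 7 of 19, led by Zfp738. The chromosome 4 group also holds the near-identical pair shown above. The part of read sharing among copies in which of its genes met the minimum was not tested. By chromosome, the share of protein-coding Zfp genes that were members was 46 of 88 on chromosome 7, 27 of 41 on chromosome 17, 12 of 31 on chromosome 13 and 8 of 30 on chromosome 4.

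**Figure D3:**
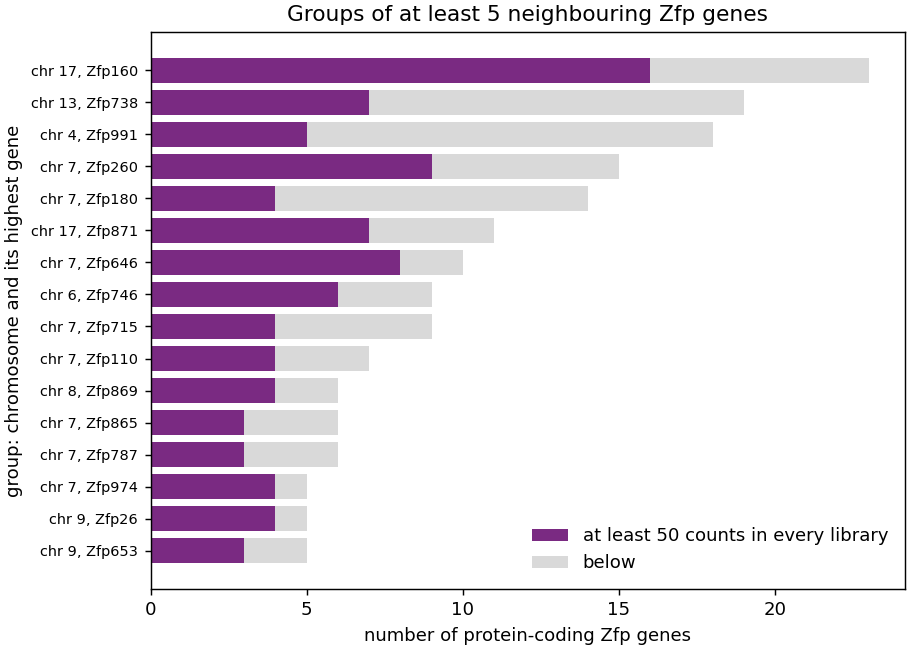
Number of protein-coding Zfp genes in each of the 16 groups of at least 5 neighbours (less than 500 kb apart), split into those with at least 50 counts in every library (purple) and those below (grey). The chromosome 17 group led by Zfp160 has 16 of 23 purple, and the chromosome 4 group led by Zfp991 has 5 of 18.

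The share of Zfp genes inside the rule differed with shared words. The rule itself rests on alignment-based counts, and the part of read sharing among copies in these shares was not tested. They are therefore not read as a difference in expression. Of the 35 protein-coding Zfp genes that shared at least 50% of their 31-base words with another gene, 11 met the minimum (31.4%). It was met by 36 of the 83 that shared 10 to 50% (43.4%), 84 of the 138 that shared 1 to 10% (60.9%) and 56 of the 108 that shared under 1% (51.9%), beside 51.4% of all. Overlap with exons on the opposite strand was the more common inside: 26.7% of members had one, against 15.8% of Zfp genes outside and 33.9% of other genes over the minimum. It is not known from the sources used here whether counting used strand, and reads of such overlapping genes may be misassigned. Beside the genes for which an overlap is stated with their values, the named genes it touches, each with the overlapping gene in parentheses, are Zfp384 (4930557K07Rik), Zfp407 (AC152060.1), Zfp513 (Snx17), Zfp605 (Gm15484), Zfp608 (Gm26742) and Zfp870 (CT033772.1) among the highest and lowest. They are Zfp143 (AA474408), Zfp346 (Gm17617), Zfp410 (Gm47484) and Zfp687 (Pi4kb) in the role lists, and Zfp54 (Gm49691), Zfp142 (Plcd4), Zfp319 (Tepp), Zfp523 (AC126937.2), Zfp646 (Prss53 and Zfp668), Zfp653 (Gm16845), Zfp703 (Gm45371) and Zfp738 (Gm26587 and Gm48095) elsewhere. Exons on the same strand are shared by Zfp644 and Gm28039, by Zfp91 and Cntf, and by Zfp956 and Zfp783. The same holds for Zfp973 and Gm14305, and for Zfp984 and Gm20707.

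The promoters of the members were of mixed base composition. RefSeq promoter sequences (GRCm38.p6, 250 bases before to 50 after the start) matched 159 members, 140 other protein-coding Zfp genes and 6202 of the other genes over the minimum. Median GC content was 55.0% in members, 53.2% in Zfp genes outside and 61.7% in the other genes over the minimum. A ratio of observed to expected CpG of at least 0.6 was found in 60.4% of members' promoters, 45.0% of those of Zfp genes outside, 77.8% of those of other genes over the minimum and 50.1% of all 16519 protein-coding promoters. Motifs were searched on both strands. The GC box GGGCGG was in 50.9% of members' promoters, 67.7% of those of other genes over the minimum and 48.2% of all. The ETS motif CCGGAAG was in 24.5% of members' promoters, 21.8% of those of other genes over the minimum and 12.3% of all, and TATAAA in 5.66%, 6.34% and 12.9%. The E box CACGTG was in 9.43% of members' promoters, 10.8% of those of other genes over the minimum and 8.09% of all.

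The promoters of the 2 highest genes differ in these motifs and are given 5′ to 3′ on the gene's own strand, with motif matches in capitals. That of Zfp263 lies at chr16:3743849-3744148 on the plus strand and holds GC boxes, written on the other strand, and an ETS match. That of Zfp207 lies at chr11:80383029-80383328 on the plus strand and holds an E box and no GC box.
Zfp263: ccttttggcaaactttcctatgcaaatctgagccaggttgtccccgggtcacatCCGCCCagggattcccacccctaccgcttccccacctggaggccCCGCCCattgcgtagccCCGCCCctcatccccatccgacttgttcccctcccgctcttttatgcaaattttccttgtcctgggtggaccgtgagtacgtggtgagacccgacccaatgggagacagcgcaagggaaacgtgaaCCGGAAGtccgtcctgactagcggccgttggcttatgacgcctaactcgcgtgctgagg
Zfp207: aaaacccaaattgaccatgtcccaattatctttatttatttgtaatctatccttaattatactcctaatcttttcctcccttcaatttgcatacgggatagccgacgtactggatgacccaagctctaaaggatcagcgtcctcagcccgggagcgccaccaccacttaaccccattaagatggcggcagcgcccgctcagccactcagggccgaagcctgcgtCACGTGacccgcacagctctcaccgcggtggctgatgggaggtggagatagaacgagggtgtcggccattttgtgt
GC content was 60.0% for Zfp263 and 52.0% for Zfp207, and the ratio of observed to expected CpG 0.765 and 0.852. A match is a description of these letters and not a site of binding.

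Spread between libraries rested on replicate 1. Of the 187 members, 46 (24.6%) had a highest library at least 2-fold above the lowest in TPM, against 19.8% of the other genes, and 150 (80.2%) had their lowest TPM in replicate 1, against 62.8%. With replicate 1 left out the first count was 2 of 232 genes (0.862%, against 2.62% of other genes), so the members' share was then the lower one. The 2 genes were Zfp868 (11.41 and 5.64 TPM in replicates 2 and 3) and Zfp113 (2.00 and 0.66 TPM), named after their values were seen. With replicate 2 left out it was 29 (15.5%, against 10.2%). In read-based TPM it was 20 (10.7%, against 11.7%). TPM moves with every other row of a library, so the same was counted in CPM (counts scaled by library total, with TMM normalisation, and not by length): 5 members (2.67%) then passed 2-fold, against 8.85% of other genes, and 99 (52.9%) were lowest in replicate 1, against 41.3%. The median member was lower in replicate 1 than the mean of the other two by 0.12 in log2 CPM (a difference of -0.12). The median other gene was higher there by 0.01, a value that TMM normalisation over these genes largely sets. Replicate 1 was also the library with the most starting RNA and the fewest counts, and the part of either in the members' difference was not tested.

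The 5 genes past 2-fold in CPM were Zfp60, Zfp369, Zfp398, Zfp932 and Zfp420, all lowest in replicate 1. Zfp60 had 73, 282 and 293 counts in replicates 1, 2 and 3, or 7.23, 16.0 and 17.4 CPM, with an SD of 0.669 on the log2 CPM scale. Zfp369 had 12.9, 28.5 and 29.1 CPM, and Zfp420 5.75, 11.5 and 11.9 CPM. In these genes replicates 2 and 3 lay close together and replicate 1 apart. Zfp738, sixth by SD, had 55.0, 103 and 103 CPM, with 555.19, 1816.04 and 1734.59 counts behind them. The median SD of log2 CPM was 0.232 over members and 0.229 over other genes, and without replicate 1 it was 0.123 and 0.116.

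**Figure D4:**
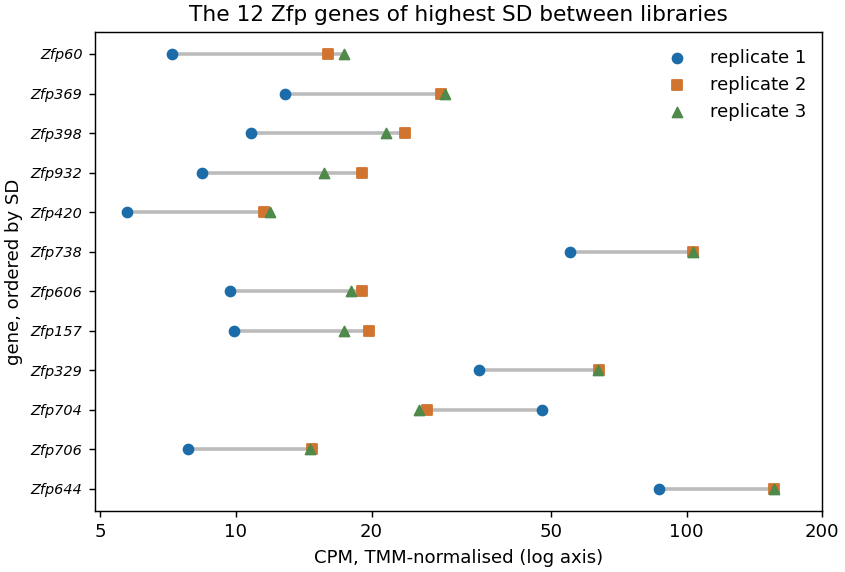
TMM-normalised CPM, on a log axis, of the 12 Zfp genes of highest SD of log2 CPM, with replicates 1 (circle), 2 (square) and 3 (triangle). In 11 of the 12 the circle lies left of the other marks, and in Zfp704 it lies right.

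Chromatin-held RNA includes transcripts whose introns have not been removed, and the annotation lists isoforms with a retained intron for many genes. Such an isoform was annotated for 91 members (48.7%), against 67.2% of other genes. In these 91 the median share of the gene's TPM in such isoforms was 32.5%, 42.1% and 39.1% in replicates 1, 2 and 3, against 45.8%, 48.1% and 47.8% in the 5202 other genes. Averaged over libraries it was 37.9% ± 4.92 in members and 47.2% ± 1.24 in other genes (SD, n = 3). A mean share of at least 50% was found in 30 of the 91 members (33.0%), against 44.5% of the other genes. The read-based quantification did not show the gap, with 45.1% in members and 45.1% in other genes.

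Among named genes, Zfp945 had 94.2%, 87.9% and 93.2% of its TPM in such isoforms in replicates 1, 2 and 3. Zfp653 averaged 77.9% ± 2.61, Zfp26 73.7% ± 5.75 and Zfp523 72.0% ± 13.9 (SD, n = 3 each). In Zfp326 the share was 56.9% in replicate 1 and 90.6% and 91.6% in replicates 2 and 3. The share was high in all libraries for Zfp945 and Zfp653, and varied with the library for Zfp326 and Zfp523. Gm26733 overlaps exons of Zfp26 on the opposite strand, and Gm49318 shares exons with Zfp653 on the same strand. Among the highest members, Zfp407 had a share of 7.96% ± 1.31, and Zfp263 one of 27.1% ± 0.900 (SD, n = 3).

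The second quantification, made from the reads without a prior alignment (called read-based), gave members somewhat higher levels. The median log2 ratio of read-based to alignment-based level was 0.26 ± 0.115 in members and 0.37 ± 0.067 in other genes (SD, n = 3). Rescaled over the protein-coding genes above the minimum, the members' ratio was -0.10 and that of other genes 0.00, so the direction for members reversed while the order of the 2 sets was kept. By the mean log2 ratio, a level at least 2-fold higher in the read-based values was found in 23 of 187 members (12.3%), against 13.3% of other genes, and at least 2-fold lower in 0 of 187, against 0.116%.

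The pairs of near-identical fingers return here. Zfp991, Zfp995 and Zfp970 were picked from the members of highest ratio, so their high read-based values are not a finding. Among the rest of the 10 members with at most 4 mismatches, the mean log2 ratio was 0.10 for Zfp966, 0.13 for Zfp992 and -0.22 for Zfp973. It was 0.26 for Zfp984, 0.32 for Zfp994, 0.61 for Zfp975 and -0.50 for Zfp971. Zfp991, with 88.0% of its words shared, had 90.3, 175 and 146 read-based TPM in replicates 1, 2 and 3, and 27.33, 32.82 and 25.17 alignment-based TPM. The gene that shared most words with it was Znf41-ps, which held 70.9% of them. Zfp992, with the closest finger and 49.9% of its own words shared, averaged 19.9 ± 2.36 read-based and 18.4 ± 3.67 alignment-based TPM (SD, n = 3), so Zfp991 and Zfp992 lay closer together in the alignment-based values than in the read-based ones. Zfp970 had 22.7, 22.3 and 22.0 read-based TPM and 3.67, 5.74 and 5.35 alignment-based TPM. Zfp995 had 19.3, 38.2 and 28.4 read-based TPM and 6.18, 4.83 and 5.31 alignment-based TPM, while Zfp947, the gene at 1 mismatch from it, averaged 0.543 read-based and 0.46 alignment-based TPM. Shared words and a high read-based value did not run together in every gene: Zfp971, with 69.5% shared, was lower in the read-based values, at 7.02, 6.84 and 7.18 read-based TPM and 8.53, 10.33 and 11.16 alignment-based TPM. Across members the median log2 ratio showed no single direction with shared words, at 0.22 for the 56 genes with under 1% shared, 0.30 for the 84 with 1 to 10%, 0.32 for the 36 with 10 to 50% and 0.07 for the 11 with at least 50%.

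Genes well below 50% of shared words could differ as well. Zfp369 had 47.8, 58.7 and 53.0 read-based TPM and 4.45, 15.85 and 15.50 alignment-based TPM, with 9.51% of words shared, part of them with Zfp110. The low value of replicate 1 was thus seen in the alignment-based level of Zfp369 and much less in the read-based one. Zfp668, whose exons overlap those of Zfp646 on the opposite strand, averaged 19.9 ± 3.97 read-based and 4.51 ± 1.23 alignment-based TPM. Zfp809, with 0.234% of words shared, averaged 25.2 ± 2.36 and 7.40 ± 2.56 TPM, and Zfp148, with 1.83%, 41.3 ± 7.96 and 17.5 ± 2.63 TPM (SD, n = 3 each, read-based first). The 5 genes of lowest ratio were Zfp971, Zfp397, Zfp830, Zfp319 and Zfp281, with mean log2 ratios of -0.50 to -0.35. For the highest gene, Zfp263, the read-based values of 175, 179 and 162 TPM lay closer together than the alignment-based ones.

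**Figure D5:**
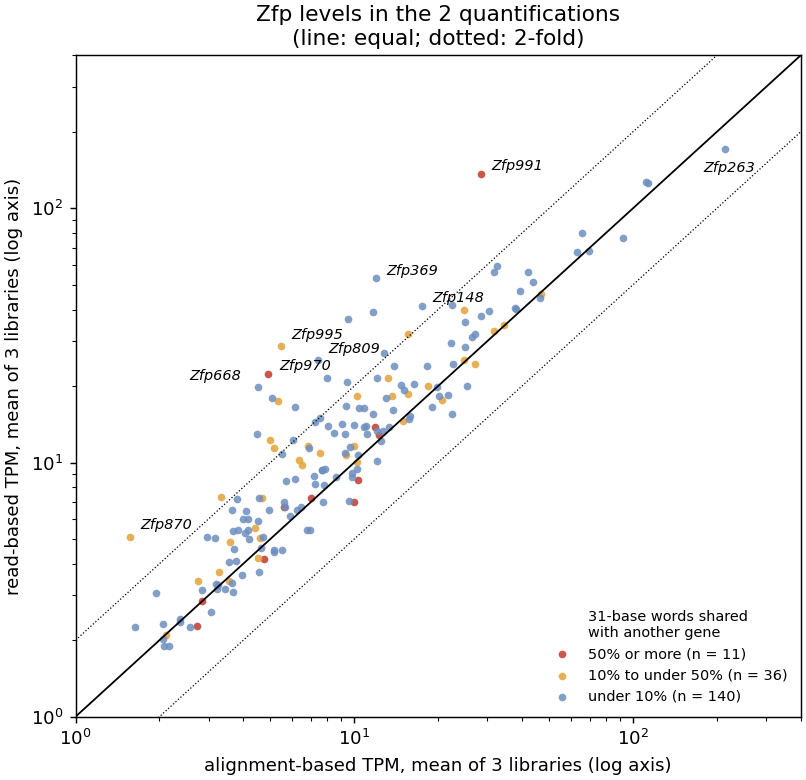
Mean read-based TPM against mean alignment-based TPM of the 187 Zfp genes, both on log axes, coloured by the share of 31-base words found in another gene. The solid line marks equal levels and the dotted lines 2-fold. Zfp991 (137 read-based and 28.4 alignment-based TPM) is the highest gene above the upper dotted line, and 0 genes lie below the lower.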

How the data were processed

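For each library the authors deposited gene and transcript tables with an expected count and a TPM value, in the columns that RSEM writes per the file headers. A second transcript table holds an estimated count and TPM per transcript, in the columns of kallisto per the file headers. Per the notes deposited with the tables, the build was mm10 with GENCODE M21; the program versions were not given in the sources used here, nor was the strand setting. TPM as deposited has a fixed sum per library, so abundant RNAs depress the rest.

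Of 81881 rows for genes, 55450 matched the annotation by identifier. Genes with a protein-coding transcript numbered 21901. Levels are log2(TPM + 0.1). Expected counts were rounded for TMM normalisation (edgeR 4.0.16, 9293 genes), and SDs are of log2(CPM + 0.5). Read-based gene levels are sums over transcripts. Fingers were matched on translated transcripts as C, 2 to 4 residues, C, 12 residues, H, 3 to 5 residues, H. Scripts used Python 3.11.15 and R 4.3.3, and were tested on simulated data.

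There was 1 group and no contrast, so no test was made and no p is given. The members, lists and named genes were chosen with earlier results of these data known. Named were the genes of highest and lowest level, SD, retained intron share and ratio of quantifications, those beside the threshold, and the role lists. No libraries were duplicates: their counts differed by a chi-square of 33.1 to 115 per degree of freedom.

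Alternatives covered pseudocounts, count minimums of 10 and 200, CPM, read-based values, DESeq2 1.42.0 size factors, and leaving out each replicate.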

Additional observations from a re-analysis of the deposited data

How the results depend on the processing

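The level of members against other genes, -0.91 on the log2 scale, kept its direction in every alternative run, at -0.69 in CPM, -0.99 and -0.74 with count minimums of 10 and 200, and -1.08 to -0.92 leaving out each replicate. The number of members was 269 and 84 at those minimums, and 187 to 232 leaving out each replicate. The retained intron share of 37.9% was 45.1% in read-based TPM and 24.9% as a share of expected counts, and 35.8% to 42.0% leaving out each replicate; the other genes had 30.6% of expected counts. The log2 ratio of read-based to alignment-based level reversed to -0.10 when rescaled over protein-coding genes, and was 0.23 to 0.31 leaving out each replicate. The median SD was 0.123 to 0.256 leaving out each replicate. The count of 46 members past 2-fold (24.6%, against 19.8% of other genes) was 5 in CPM (2.67% against 8.85%), 116 at 1.5-fold (62.0% against 55.9%), 20 in read-based TPM (10.7% against 11.7%) and 2 to 40 leaving out each replicate. The members' share was thus below that of other genes in CPM, in read-based TPM and without replicate 1 (0.862% against 2.62%), and above it without replicate 2 (15.5% against 10.2%) and without replicate 3 (21.4% against 15.1%). The cause of these shifts was not tested. Of the 68 named genes, 33 moved by more than 1 SD in read-based TPM. Leaving out 1 of 3 libraries cannot move a mean by 1 SD, so that comparison says nothing of the named genes. No paired analysis was possible because the libraries were of 1 group. Depth limits the genes near 50 counts, and every value rests on 3 libraries of 1 condition.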

Other observations

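Some members outside the named groups had values a reader may want to look at, and were chosen after their values were seen. Zfp516, an activator of the brown fat gene Ucp1 in the mouse, had 60.33, 20.34 and 16.84 alignment-based TPM in replicates 1, 2 and 3, but 74.7, 55.3 and 48.0 read-based TPM and 179, 123 and 106 CPM. Zfp704 was likewise highest in replicate 1, at 47.8, 26.6 and 25.4 CPM, with C030034L19Rik overlapping its exons on the opposite strand. Zfp811, beside Zfp871 on chromosome 17, had 19.16, 56.06 and 39.47 TPM, and was lowest in replicate 1. Zfp330, in which no finger of the searched form was found, had 21.84, 37.35 and 43.88 TPM, and 69.9% ± 1.73 (SD, n = 3) of its TPM was in isoforms with a retained intron. Zfp931 had the highest mean level of the Zfp genes outside, at 7.12 TPM with 28 counts in its lowest library.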
